A study of Mus musculus with 8 samples.

Results

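The nuclear genes for the subunits of the mitochondrial respiratory chain and ATP synthase were measured in mouse blood monocytes. They were chosen by gene symbol alone: the Nduf subunits of complex I, the 4 Sdh subunits of complex II, Cyc1 and the Uqcr genes of complex III, the Cox4 to Cox8 families of complex IV and the Atp5 genes of complex V. The rule found 82 genes among the 18193 genes measured, 35 in complex I, 4 in complex II, 9 in complex III, 17 in complex IV and 17 in complex V. Assembly factors were not members. Genes of this family whose probe sets carry several symbols, such as Cox7b, were not analysed here.

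The respiratory chain moves electrons from NADH and succinate to oxygen and pumps protons across the inner mitochondrial membrane, and ATP synthase lets the protons back to make ATP. Complex I takes electrons from NADH, complex II takes them from succinate, complex III passes them from ubiquinone to cytochrome c, and complex IV hands them to oxygen. Each of complexes I, III, IV and V combines mitochondrially encoded subunits with many nuclear ones, while complex II is wholly nuclear. Blood monocytes of the mouse fall into a classical subset, which carries much Ly-6C (here Gr1hi), and a nonclassical subset with little (here Gr1lo), which arises largely from the first and patrols the vessel wall.

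The study sorted both subsets from the blood of male C57BL/6 mice that had received fluorescent latex beads of 1 µm by vein 4 days earlier, and separated cells with beads from cells without. This gave 4 groups of 2 arrays each: Gr1hi monocytes without beads, Gr1hi monocytes with beads, Gr1lo monocytes without beads and Gr1lo monocytes with beads. All 4 groups were wild-type, with no genetic change named, and cells without beads came from bead-injected mice according to the series' design text. The texts differ on pretreatment: the design text gives clodronate liposomes, which deplete phagocytes, 3 days before the beads for the whole series, and the treatment protocol gives them only for labelling the classical subset. The subset and the pretreatment therefore cannot be told apart if the second account holds. The 2 arrays of a group are called biological replicates; the number of mice and of cells behind each array is not given in the sources used here, which, with so few arrays, leaves the precision low.

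Values are log2 expression, so a difference of 1 is a 2-fold change, and differences below 0 mean lower in Gr1lo or lower with beads. A gene was called when its limma p, adjusted by Benjamini-Hochberg over all 18193 genes, was under 0.05. A background level of 6.98 was set from 115 genes of olfactory, vomeronasal, taste and keratin-associated families; 8790 of all genes (48.3%) and 74 of the 82 subunits averaged above it. The labels held: Nr4a1 was higher in Gr1lo by 2.21 ± 0.07 (SE), Treml4 by 4.29 ± 0.06 and Cx3cr1 by 1.45 ± 0.08, and Ccr2 fell by 0.94 ± 0.12. Pearson correlations over all genes ran from 0.9925 to 0.9968 within groups and from 0.967 to 0.9762 between subsets. The poly-A control probe sets, for bacterial transcripts that can be added to RNA before labelling, averaged 7.47 ± 0.23 (SD, n = 2) in Gr1hi without beads, 9.0 ± 0.25 in Gr1hi with beads, 8.39 ± 0.36 in Gr1lo without beads and 9.70 ± 0.01 in Gr1lo with beads; they thus moved with subset and with beads, and their part in the results was not tested.

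The main comparison asks how the subunits differ between the 2 subsets. Averaged over bead state, 67 of the 82 subunits fell in Gr1lo monocytes and 1, Cox7c, rose, while 20.9% of all genes were called lower and 14.8% higher (limma, adjusted p under 0.05). The median subunit stood at -0.54, which is 68.9% of its Gr1hi level, and the median of all genes was -0.05. Among the 74 subunits above background 65 fell and 1 rose, while 30.7% of all genes above background were called lower and 25.5% higher. All 4 Gr1lo arrays lay below all 4 Gr1hi arrays for 65 of the 82 subunits (19.7% of all genes), and all 4 lay above for 1 (13.9%). As these are bulk samples, less RNA per cell and fewer cells of a type cannot be told apart.

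The mean over the 82 subunits, each centred on its own mean over the 8 arrays, was 0.22 and 0.23 in Gr1hi without beads and 0.28 and 0.24 in Gr1hi with beads. It was -0.14 and -0.21 in Gr1lo without beads and -0.29 and -0.32 in Gr1lo with beads. The 4 Gr1lo arrays were thus below the 4 Gr1hi arrays, and those with beads were the lowest of all. Neutrophil markers moved with the same contrast: 9 of the 10 measured fell in Gr1lo. Their summed log2 level ran from 13.04 to 13.66 in Gr1hi and from 11.07 to 11.25 in Gr1lo. Of the 10, 9 averaged above background in Gr1hi without beads, 7 in Gr1hi with beads, 4 in Gr1lo without beads and 3 in Gr1lo with beads. Cxcr2 was not above background in any group. One of that list, S100a8, is a classical monocyte marker as well, and it read 12.53 to 13.25 in Gr1hi and 7.17 to 8.19 in Gr1lo. Of the classical markers 8 of 9 fell, and of the nonclassical markers 12 of 12 rose. In the B cell, T cell, NK cell, platelet and erythroid lists 1, 3, 0, 3 and 2 markers fell and 2, 1, 1, 0 and 1 rose. Of the 8 dendritic cell markers measured 1 fell and 2 rose, Itgax by 4.64 and Cd209a by 1.88. The summed level of the list ran from 10.01 to 10.17 in Gr1hi and from 12.28 to 12.44 in Gr1lo. Itgax alone read 6.83 to 7.76 in Gr1hi and 11.55 to 12.09 in Gr1lo. Without beads Cd209a rose by 3.49, while with beads it read 6.45 and 6.52 in Gr1hi and 6.69 and 6.84 in Gr1lo. Zbtb46, Xcr1, Siglech and Ccr7 were not above background in any group. Of the 12 tissue macrophage markers 3 fell, among them Gpnmb with a log2 difference of -3.44, and 2 rose. No eosinophil or basophil marker was above background in any group. The part of these markers in the subunit result was not tested.

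**Figure D1:**
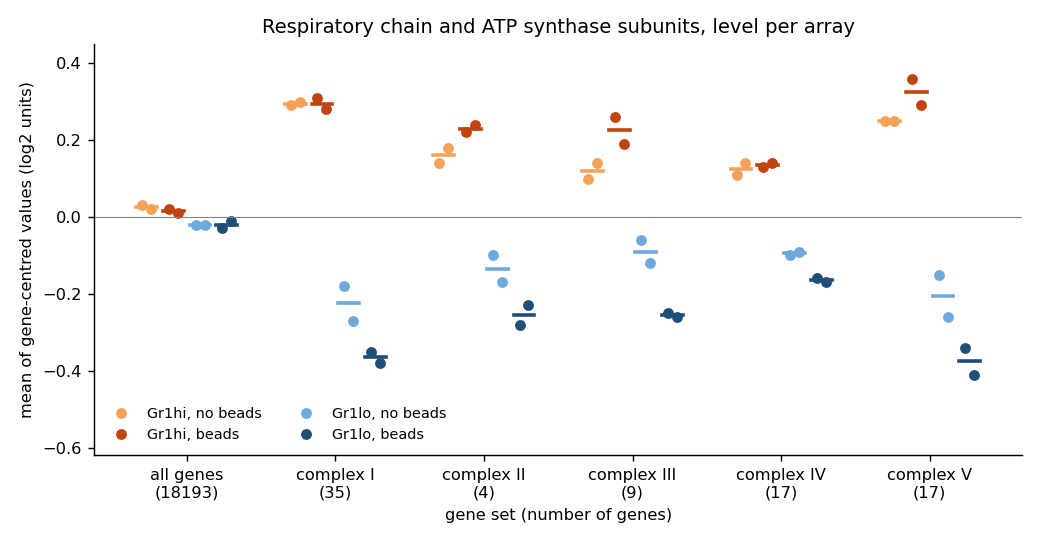
Mean of gene-centred log2 values for each complex and for all genes on each of the 8 arrays (points), with the mean of the 2 arrays of a group (bars); numbers of genes stand under the axis. In each complex the 4 Gr1lo arrays lie below the 4 Gr1hi arrays, from -0.38 to -0.18 against 0.28 to 0.31 in complex I, while all genes lie between -0.03 and 0.03.

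Complex I held the largest median difference of the 5 complexes. Of its 35 members 31 fell in Gr1lo, none rose, and the median was -0.63, or 64.4% of the Gr1hi level. Of the 7 nuclear core subunits, most of which carry the flavin or iron-sulphur clusters, 6 were measured here and 5 of these fell. Ndufs8, an iron-sulphur core subunit, read 11.96 and 11.87 in Gr1hi without beads, 11.97 and 11.93 in Gr1hi with beads, 11.15 and 10.89 in Gr1lo without beads and 10.85 and 10.64 in Gr1lo with beads. The Gr1hi arrays were almost level and every Gr1lo array lay far below them. It was 2.07-fold lower in Gr1lo, with a log2 difference of -1.05 ± 0.08 (SE, limma adjusted p = 1.94e-05). Its other probe sets gave -1.15 to -1.02, except 1 that averaged 9.43, above background, and gave only -0.08. Ndufs3 fell by 0.70, Ndufv1, which binds NADH and flavin, by 0.67, Ndufv2 by 0.58 and Ndufs1, the largest core subunit, by 0.33. Ndufs7, the core subunit with the last cluster before ubiquinone, did not pass: it read 9.85 and 9.85 in Gr1hi without beads, 9.91 and 9.75 in Gr1hi with beads, 9.88 and 9.69 in Gr1lo without beads and 9.98 and 9.86 in Gr1lo with beads. Those groups overlapped, and its difference was 0.01 with a 95% interval of -0.15 to 0.18.

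Accessory subunits surround the complex I core and are needed to build and hold it. Of 27, 25 fell, with a median of -0.63. Ndufb6, in the membrane arm, read 11.37 and 11.39 in Gr1hi without beads, 11.32 and 11.30 in Gr1hi with beads, 10.54 and 10.43 in Gr1lo without beads and 10.07 and 10.15 in Gr1lo with beads. Its subsets were far apart, and within Gr1lo both bead arrays were below both arrays without beads. The difference was -1.05 ± 0.06 (SE, limma adjusted p = 3.65e-06). Ndufc1 and Ndufa9, which sits near the ubiquinone site, each fell by 0.92, Ndufb8 by 0.86, Ndufb5 by 0.83 and Ndufa10 by 0.81. The smallest called falls were those of Ndufa7, at -0.32, and Ndufa2, at -0.43. Ndufa6, of the peripheral arm, did not pass: it read 11 to 11.19 in Gr1hi and 11.16 to 11.37 in Gr1lo, overlapping ranges, with a difference of 0.13 (95% interval -0.02 to 0.27). Ndufb4 averaged 4.73, under the background level, and was not called.

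Ndufa4 is grouped here by its symbol, although the protein is now counted with complex IV. It read 11.16 and 11.18 in Gr1hi without beads, 10.97 and 10.84 in Gr1hi with beads, 10.19 and 10.10 in Gr1lo without beads and 9.79 and 9.88 in Gr1lo with beads. The Gr1lo arrays lay below the Gr1hi arrays in both bead states, and the difference was -1.05 ± 0.06 (SE, limma adjusted p = 5.01e-06). Its isoform Ndufa4l2, known for its induction in low oxygen, averaged 6.92, under background, and was not called. Ndufa4, Ndufb6 and Ndufs8 were the 3 subunits with a fall of 2-fold or more.

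Complex II split by subunit. Sdhb, the iron-sulphur subunit, read 11.70 and 11.68 in Gr1hi without beads, 11.75 and 11.78 in Gr1hi with beads, 11.14 and 11.15 in Gr1lo without beads and 11.05 and 11.08 in Gr1lo with beads. The subsets did not overlap, and it fell by 0.62 ± 0.05 (SE, limma adjusted p = 4.07e-05). The membrane anchors fell as well, Sdhc by 0.43 ± 0.08 and Sdhd by 0.51 ± 0.06. Sdhc read 10.36 and 10.45 in Gr1hi without beads, 10.50 and 10.54 in Gr1hi with beads, 10.14 and 10.07 in Gr1lo without beads and 9.80 and 10.10 in Gr1lo with beads. Sdhd read 11.34 and 11.47 in Gr1hi without beads, 11.38 and 11.39 in Gr1hi with beads, 11.06 and 10.99 in Gr1lo without beads and 10.76 and 10.75 in Gr1lo with beads. In both anchors every Gr1lo array was below every Gr1hi array. Sdha, the flavoprotein that oxidises succinate, read 10.88 and 10.84 in Gr1hi without beads, 10.98 and 10.97 in Gr1hi with beads, 11 and 10.84 in Gr1lo without beads and 10.98 and 10.88 in Gr1lo with beads. Its groups overlapped, and the difference was 0.01 with a 95% interval of -0.14 to 0.15. A second Sdha probe set above background gave -0.18, so its probe sets differ in sign.

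In complex III 7 of 9 members fell, with a median of -0.25, or 84.0% of the Gr1hi level. Falls were small among the redox and core proteins: the Rieske iron-sulphur protein Uqcrfs1 fell by 0.33, cytochrome c1 (Cyc1) by 0.22 and the core protein Uqcrc2 by 0.19. Its partner Uqcrc1 stood at -0.22 ± 0.08 (SE) and missed the threshold (limma adjusted p = 0.061). The small subunits were spread more widely. Uqcrq, annotated as a ubiquinone-binding protein, read 11.18 and 11.26 in Gr1hi without beads, 11.35 and 11.26 in Gr1hi with beads, 10.66 and 10.49 in Gr1lo without beads and 10.27 and 10.33 in Gr1lo with beads. Its subsets were well apart, and it fell by 0.82 ± 0.07 (SE, limma adjusted p = 2.4e-05). Uqcr11 fell by 0.74, Uqcr10 by 0.26 and Uqcrb by 0.25. Uqcrh, the acidic hinge protein that helps cytochrome c dock, read 12.23 and 12.27 in Gr1hi without beads, 12.33 and 12.25 in Gr1hi with beads, 12.26 and 12.32 in Gr1lo without beads and 12.19 and 12.20 in Gr1lo with beads. Those ranges overlapped, and its difference was -0.03 (95% interval -0.15 to 0.10).

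Complex IV has ubiquitous subunits and isoforms restricted to muscle, lung, testis and other tissues. Of the 9 ubiquitous ones 7 fell in Gr1lo. Cox5b, the zinc-binding subunit, read 13.07 and 13.12 in Gr1hi without beads, 13.2 and 13.14 in Gr1hi with beads, 12.44 and 12.31 in Gr1lo without beads and 12.34 and 12.33 in Gr1lo with beads. All Gr1lo arrays were well below the Gr1hi arrays, and it fell by 0.78 ± 0.06 (SE, limma adjusted p = 1.97e-05). Cox6c fell by 0.65, Cox8a by 0.55, Cox4i1 by 0.54, Cox7a2 by 0.51, Cox6b1 by 0.45 and Cox6a1 by 0.31. Cox5a, which sits beside Cox4i1 on the matrix side, did not: it read 12.91 and 12.97 in Gr1hi without beads, 13.02 and 13 in Gr1hi with beads, 13 and 13.03 in Gr1lo without beads and 12.95 and 12.94 in Gr1lo with beads. These overlapped within a narrow range, with a difference of 0.01 (95% interval -0.12 to 0.13).

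Cox7c was the one subunit called higher. It read 7.6 and 7.82 in Gr1hi without beads, 7.92 and 7.91 in Gr1hi with beads, 8.13 and 8.15 in Gr1lo without beads and 8.41 and 7.94 in Gr1lo with beads. The lowest Gr1lo array was barely above the highest Gr1hi array, and the rise was 0.34 ± 0.10 (SE, limma adjusted p = 0.0304). The call held without replicate 2 of Gr1hi without beads or replicate 2 of Gr1lo with beads, but was lost when any 1 of the other 6 arrays was left out, with differences from 0.23 (without replicate 1 of Gr1lo with beads) to 0.35. Cox7c was read by a probe set averaging 7.98, not far over background, whose suffix marks probes shared with other transcripts. Cox7a2l, a protein related to Cox7a2, was not called, at -0.09 (95% interval -0.21 to 0.04).

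Of the 7 tissue-restricted complex IV isoforms only Cox8c, a testis isoform, averaged above background (8.94), and it was not called. Each of the others was under background where its ubiquitous partner was above it: Cox4i2 against Cox4i1, Cox6a2 against Cox6a1, Cox6b2 against Cox6b1, Cox7a1 against Cox7a2 and Cox8b against Cox8a. Cox7b2 was under background too, and its partner Cox7b was not analysed here. Cox7a1 and Cox6b2 were called lower, at -0.52 and -0.43, but with means of 5.36 and 6.35 both probe sets were under the background level. Leaving out the 6 isoforms under background, complex IV had 7 of 11 lower and a median of -0.45 in place of 9 of 17 and -0.31.

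Complex V was lower throughout: 17 of 17 members fell in Gr1lo, with a median of -0.54. The F1 head makes ATP, and the 5 subunits of head and central stalk fell from 0.31 (Atp5e) to 0.55 (Atp5d), with the catalytic beta subunit Atp5b at -0.49 and the alpha subunit Atp5a1 at -0.41. The 3 genes for the proton-carrying c subunit encode the same mature protein; Atp5g1 fell by 0.99, Atp5g2 by 0.63 and Atp5g3 by 0.54. Atp5g1 read 10.55 and 10.56 in Gr1hi without beads, 10.61 and 10.63 in Gr1hi with beads, 9.90 and 9.52 in Gr1lo without beads and 9.58 and 9.38 in Gr1lo with beads. Its Gr1hi arrays were nearly level and its Gr1lo arrays lower and more scattered, with a difference of -0.99 ± 0.09 (SE, limma adjusted p = 5.59e-05).

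The peripheral stalk keeps the head from turning with the rotor, and its 4 subunits all fell. Atp5o, the stalk's tip, read 11.97 and 11.90 in Gr1hi without beads, 12.05 and 11.99 in Gr1hi with beads, 11.28 and 11.10 in Gr1lo without beads and 11.15 and 11.04 in Gr1lo with beads. The gap between the subsets was several times the gap between replicates, and it fell by 0.83 ± 0.07 (SE, limma adjusted p = 2.44e-05). Atp5j, coupling factor 6, fell by 0.81, Atp5pb by 0.62 and Atp5h by 0.45. The 5 small membrane subunits, several of which help pair the enzyme into dimers, fell from 0.34 (Atp5l) to 0.68 (Atp5k). Differences between the complexes were not tested, since the members of a complex are not replicates.

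**Figure D2:**
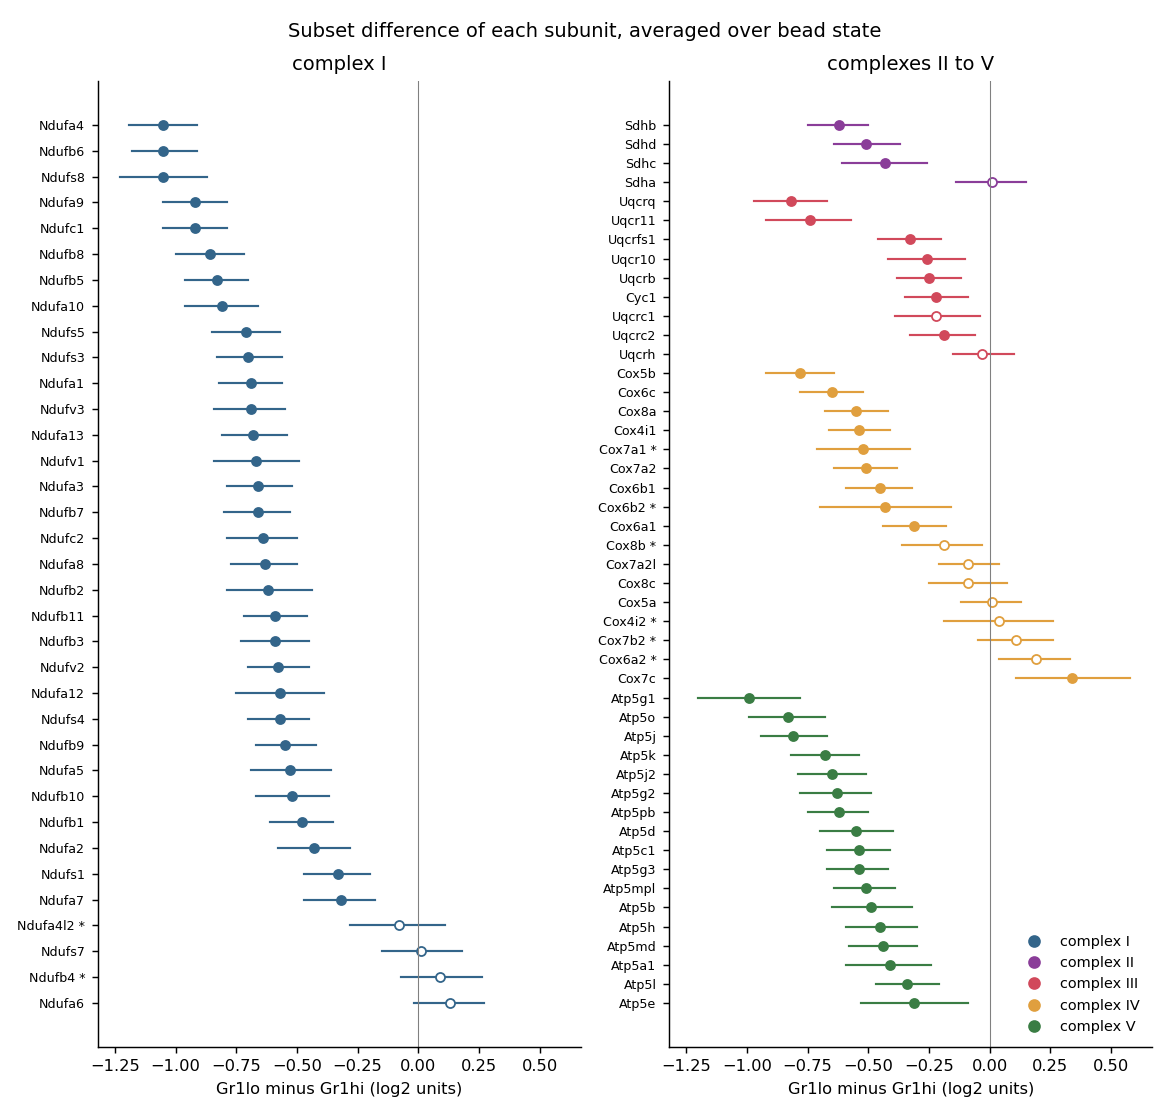
Difference between Gr1lo and Gr1hi monocytes averaged over bead state for each of the 82 subunits (log2 units), with 95% intervals from limma; filled points passed an adjusted p of 0.05, open points did not, and a star marks a mean under background. Nearly all filled points lie left of 0, from -1.05 for Ndufa4, Ndufb6 and Ndufs8 upward, and Cox7c is the one filled point to the right.

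Several probe sets per gene gave a check on these values. The 82 subunits had 165 probe sets, 136 of them above background, and 127 of those 136 were lower in Gr1lo. Of 41 subunits with several probe sets above background, 34 had all in 1 direction; Cox5a, Cox5b, Cox8c, Ndufa7, Ndufs7, Sdha and Uqcr10 had both signs. In Cox5b the dissenting probe set averaged 7.21, beside 4 others above background that all gave a fall. The probe sets used for 16 subunits carry suffixes that mark probes shared with other transcripts. Of these subunits 15 were called lower, and the other, Cox7c, was called higher.

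The subset difference was then read separately in each bead state. The means compared share no arrays, but both comparisons take each gene's spread from all 8 arrays. Without beads, 56 of 82 subunits fell in Gr1lo and none rose (all genes: 13.6% lower, 10.0% higher), with a median of -0.45. Cells with beads showed 67 lower and none higher (all genes: 14.6% lower, 11.8% higher), with a median of -0.61. The 56 were all among the 67, and both sets of calls rest on that same spread. In complex III the count went from 2 to 7 of 9, and in complex V from 14 to 17 of 17. The 11 called with beads alone were Atp5a1, Atp5e, Atp5l, Cox6b2, Cyc1, Ndufa7, Sdhc, Uqcr10, Uqcrb, Uqcrc2 and Uqcrfs1. That a gene was called in 1 bead state alone does not show a difference between them, and the test of that difference called none of the 82 (all genes: 0.033% called lower, 0.011% higher). In that test 20 of the 82, or 24.4%, had an unadjusted p under 0.05, beside 7.84% of all genes (limma). These shares come from unlike sets: 74 of the 82 subunits averaged above background, beside 48.3% of all genes. Across the 82 subunits the differences without and with beads correlated with r = 0.85, beside 0.89 over all genes, a description across genes that share arrays.

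**Figure D3:**
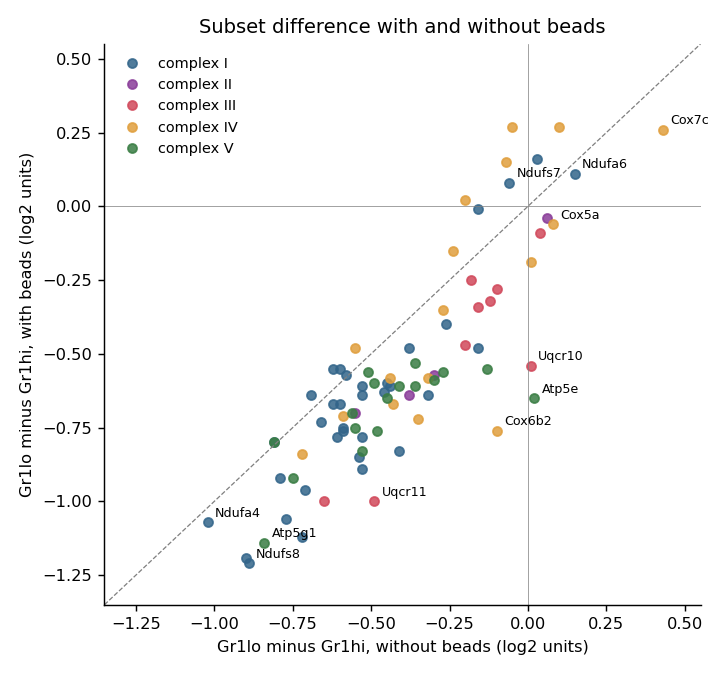
Difference between Gr1lo and Gr1hi without beads (horizontal) against the same with beads (vertical), in log2 units, 1 point per subunit coloured by complex; the dashed line marks equal values. Most points lie in the lower left and 67 of 82 lie below the line, a larger fall with beads.

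Beads against no beads gave no call among the subunits in Gr1hi (all genes: 0.0989% called lower, 0.148% higher) or in Gr1lo (all genes: 0.143% called lower, 0.0824% higher). In Gr1hi 6 of the 82, or 7.32%, had an unadjusted p under 0.05 (limma), beside 9.93% of all genes, and the median was 0.03. In Gr1lo 27 of the 82, or 32.9%, had an unadjusted p under 0.05, beside 13.2% of all genes and 15.7% of genes above background. The Gr1lo median was -0.13, against 0.02 for all genes and -0.03 for genes above background. In Gr1lo 69 of the 82 subunits had a difference below 0, beside 44.3% of all genes and 58.6% of those above background. Both bead arrays were below both arrays without beads for 53 subunits in Gr1lo (19.4% of all genes) and above for 3 (23.3%). In Gr1hi both bead arrays were above for 31 (19.2%) and below for 18 (25.0%). Of the 27 in Gr1lo, all were below 0 except Cox6a2, Cox7b2 and Cox8c, of which Cox6a2 and Cox7b2 were under background.

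Single subunits show the sizes involved. Uqcr10, a small complex III subunit, read 10.42 and 10.54 in Gr1hi without beads and 11.06 and 10.84 with beads, a difference of 0.47 ± 0.10 (SE, limma adjusted p = 0.148). In Gr1lo it read 10.50 and 10.49 without beads and 10.38 and 10.44 with beads, at -0.09 ± 0.10. The bead arrays were thus high in Gr1hi and slightly low in Gr1lo; the difference between these effects was -0.55 ± 0.14 (SE, limma adjusted p = 0.504). Atp5e, the epsilon subunit of the F1 stalk, gave 0.38 ± 0.14 in Gr1hi and -0.29 ± 0.14 in Gr1lo. It read 10.82 and 11.06 in Gr1hi without beads, 11.46 and 11.17 with beads, 11.09 and 10.82 in Gr1lo without beads and 10.71 and 10.63 with beads, so that without beads the subsets overlapped.

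Ndufb1, a membrane-arm subunit of complex I, had one of the smallest p in Gr1lo. It read 8.42 and 8.32 in Gr1lo without beads and 7.92 and 7.96 with beads, and 8.72 and 8.68 against 8.59 and 8.56 in Gr1hi. The Gr1lo bead arrays were the lowest of the 8, at a difference of -0.43 ± 0.08 (SE, limma adjusted p = 0.108) within Gr1lo. Atp5pb, the b subunit of the stalk, read 12.22 and 12.23 without beads and 11.91 and 11.87 with beads in Gr1lo, a difference of -0.34 ± 0.08 (SE, limma adjusted p = 0.155). In Gr1hi it read 12.68 and 12.73 without beads and 12.66 and 12.64 with beads, almost level. Sdhd stood at -0.27 ± 0.08 in Gr1lo and -0.02 ± 0.08 in Gr1hi, Uqcrfs1 at -0.29 ± 0.08 and -0.02 ± 0.08, and Cox4i1 at -0.26 ± 0.08 and 0.11 ± 0.08. Ndufa4 stood below 0 in both, at -0.26 ± 0.09 in Gr1hi and -0.31 ± 0.09 in Gr1lo.

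Cell type markers, of the monocyte subsets and of other cells, moved with the bead comparisons in both subsets. In Gr1lo the summed log2 level of the classical markers was 15 to 15.43 without beads and 14.32 to 14.36 with beads, and in Gr1hi it was 16.38 to 16.41 and 16.11 to 16.13. Of the 9 classical markers measured 4 were called lower with beads in Gr1lo and none higher. Differences ran from -3.75 to 1.45, with 7 below 0 and 2 above. Among the 4 called, F13a1 read in Gr1lo 10.61 and 10.17 without beads and 7.46 and 7.24 with beads. Vcan, also among them, read in Gr1lo 8.10 and 7.58 against 4.84 and 4.89. Cd209a, a dendritic cell marker, read 10.06 and 9.73 in Gr1lo without beads and 6.35 to 6.84 in the other 3 groups. The summed tissue macrophage markers ran in Gr1hi from 12.48 to 12.49 without beads and from 13.34 to 13.36 with beads, and in Gr1lo from 12.12 to 13.62 and from 13.20 to 13.56. Of the 12 on that list 3 were called with beads in each subset. Slc40a1, the iron exporter ferroportin, rose by 1.2 in Gr1hi and 2.98 in Gr1lo. Spic rose by 1.47 in Gr1hi, and in Gr1lo it read 7.73 and 7.79 without beads and 8.98 and 8.70 with beads. Gpnmb rose by 2.16 in Gr1lo, and in Gr1hi it read 9.94 and 10.12 without beads and 11.32 and 11.52 with beads. Marco, Vcam1, Cd163 and Timd4 were not above background in any group. In Gr1hi 3 of the 12 nonclassical markers were called higher with beads and none lower, with 9 above 0 and 3 below. Their summed level ran from 13.93 to 14.02 without beads and from 13.99 to 14.13 with beads. Treml4, among the 3 called, read 8.42 and 8.37 without beads and 9.05 and 9.08 with beads. The summed neutrophil markers read in Gr1hi 13.66 on both arrays without beads and 13.04 and 13.22 with beads. Of the 10 measured 2 were called lower, and all lay below 0. S100a8, also a classical marker, read 13.08 and 13.25 in Gr1hi without beads and 12.64 and 12.53 with beads. The part of these markers in the subunits' values was not tested, nor whether other cells were present.

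**Figure D4:**
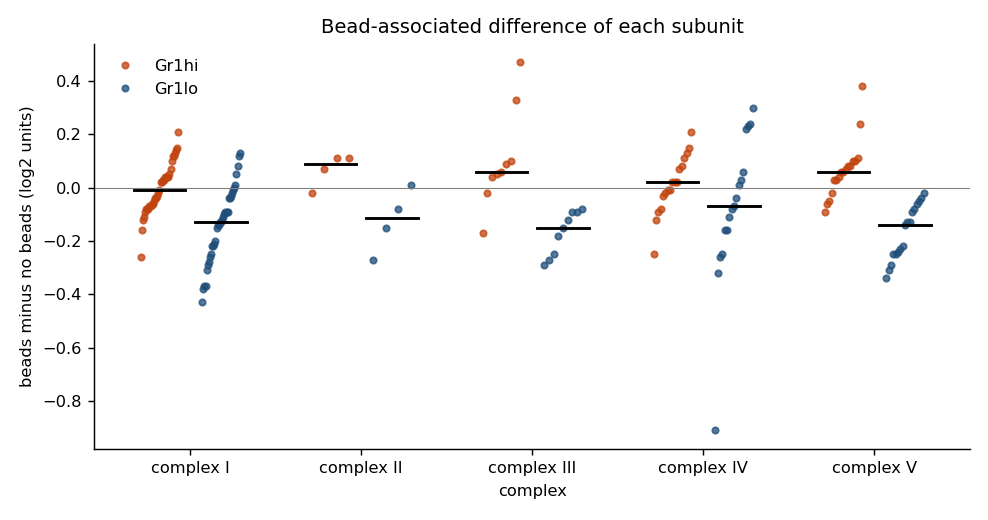
Difference between cells with and without beads for each subunit (points, log2 units) by complex, in Gr1hi and Gr1lo monocytes, with the median of each set (black bars). The Gr1lo medians lie below 0 in all 5 complexes, from -0.15 in complex III to -0.07 in complex IV, and the Gr1hi medians between -0.01 and 0.09; no subunit was called in either.

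Genes that work beside the subunits were read from lists of known members. Of the subunits encoded in the mitochondrial genome 1, ND5 of complex I, was measured, and it fell by 0.24 ± 0.07 (SE, limma adjusted p = 0.0302). Of the carriers and users of the proton gradient 10 of 12 fell and none rose, with a median of -0.54. Slc25a4, the adenine nucleotide carrier of heart and muscle, fell by 2.19, Slc25a13, an aspartate-glutamate carrier, by 0.79 and Vdac2, an outer membrane channel, by 0.62. Slc25a4 read 11.16 to 11.26 on the 4 Gr1hi arrays, 9.77 and 9.18 in Gr1lo without beads and 8.84 and 8.34 in Gr1lo with beads, with no overlap. Atpif1, the inhibitor of ATP synthase in reverse, read 11.02 to 11.18 in Gr1hi, 10.11 and 9.49 in Gr1lo without beads and 9.62 and 9.39 with beads, and fell by 1.34 without beads (limma adjusted p = 0.00111).

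Of the tricarboxylic acid cycle and pyruvate entry list 15 of 19 fell and 1 rose, with a median of -0.28. Mpc1, a component of the carrier that brings pyruvate into the matrix, fell by 1.95, and fumarase (Fh1) by 0.92. Pdha1, the E1 alpha subunit of pyruvate dehydrogenase, rose by 0.71. Of the assembly factors 24 of 43 fell and 5 rose, with a median of -0.23; Bcs1l, which inserts the Rieske protein into complex III, fell by 0.99, and Sdhaf4, which helps mature Sdha, by 0.64. Of the electron carriers and coenzyme Q enzymes 11 of 18 fell and 4 rose. Etfb, which brings electrons from fatty acid oxidation, fell by 0.63, and the glycerol phosphate dehydrogenase Gpd2 and the coenzyme Q enzyme Coq2 rose by 0.92 and 0.74. Of the regulators of mitochondrial biogenesis 3 of 15 fell and 3 rose, with a median of -0.04: Esrra and Nrf1, transcription factors known to act on respiratory genes, rose by 0.57 and 0.49, and the mitochondrial DNA-binding protein Ssbp1 fell by 0.49. No gene of these lists was called for beads in either subset.

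**Figure D5:**
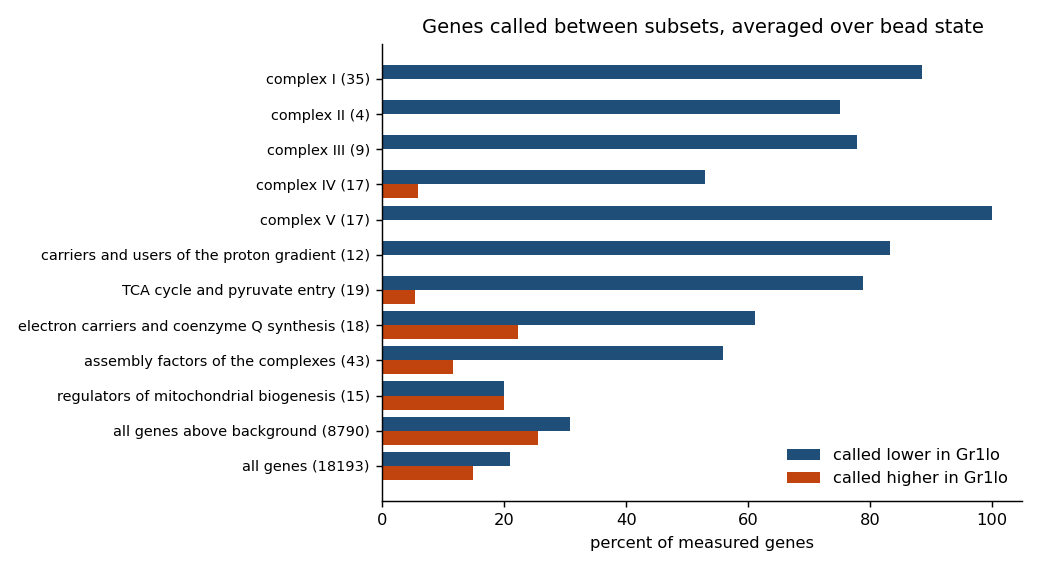
Share of measured genes called lower (blue) or higher (orange) in Gr1lo, averaged over bead state, for each complex, the related gene lists and all genes; numbers of genes stand in brackets. All of complex V and 88.6% of complex I were lower, while the regulators of biogenesis have 20.0% on each side and all genes 20.9% and 14.8%.

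Since the subunits moved together, their promoters were searched for letters that transcription factors of respiratory genes are known to bind. The windows held 300 bases, 250 before and 50 after the start, and came from RefSeq (GRCm38.p6), which had 66 of the 82 subunits. Both strands were searched for GCGCATGCG (NRF1), CCGGAAG (the ETS family, with GABPA), AAGATGGCG (YY1) and AAGGTCA (ERRA). None of the 4 strings contains another, but GCGCATGCG can overlap itself on the other strand, and the others can overlap at their ends. At least 1 was present for 29 of 66 subunits (43.9%), beside 23.1% of all genes tested here and 17.6% of all genes with a window. The NRF1 letters were in 10.6% of the subunits and 3.09% of the genes tested, the ETS letters in 25.8% and 15%, the YY1 letters in 9.09% and 2.53% and the ERRA letters in 12.1% and 4.61%. Among subunits that fell 25 of 55 held at least 1, and among the others 4 of 11. A match is a description, not a site.

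The 250 bases before the start are shown for 4 subunits, from 5′ to 3′ on the gene's strand, with the matched letters in capitals. Atp5l and Cox6a1 were called lower and held the letters of at least 2 factors; Uqcr11 and Uqcrh are a pair from complex III, the first with a fall of 0.74 and the second not called. They were picked after their values were seen, among genes with a single start in the table.
Atp5l (chr9:44920743-44920992, minus strand): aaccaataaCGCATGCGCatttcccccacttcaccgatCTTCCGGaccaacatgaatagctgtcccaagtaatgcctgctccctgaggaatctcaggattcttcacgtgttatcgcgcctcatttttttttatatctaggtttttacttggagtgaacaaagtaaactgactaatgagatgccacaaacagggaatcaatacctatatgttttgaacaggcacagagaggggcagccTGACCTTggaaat
Cox6a1 (chr5:115348959-115349208, minus strand): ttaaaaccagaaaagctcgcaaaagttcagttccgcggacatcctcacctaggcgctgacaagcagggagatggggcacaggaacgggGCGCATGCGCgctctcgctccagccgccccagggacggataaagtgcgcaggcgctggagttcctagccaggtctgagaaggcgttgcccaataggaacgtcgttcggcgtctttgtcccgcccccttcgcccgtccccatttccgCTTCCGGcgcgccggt
Uqcr11 (chr10:80406822-80407071, minus strand): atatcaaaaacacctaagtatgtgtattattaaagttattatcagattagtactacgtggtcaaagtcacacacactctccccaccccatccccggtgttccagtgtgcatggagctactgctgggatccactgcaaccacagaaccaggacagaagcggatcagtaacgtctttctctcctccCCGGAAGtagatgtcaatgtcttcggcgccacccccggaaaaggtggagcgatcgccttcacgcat
Uqcrh (chr4:116075071-116075320, minus strand): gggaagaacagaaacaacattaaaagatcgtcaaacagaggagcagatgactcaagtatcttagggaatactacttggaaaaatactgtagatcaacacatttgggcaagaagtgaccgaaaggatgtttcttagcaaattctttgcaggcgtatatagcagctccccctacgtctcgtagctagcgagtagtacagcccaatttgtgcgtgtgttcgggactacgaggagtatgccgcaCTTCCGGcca
In Atp5l the NRF1, ETS and ERRA letters begin 241, 212 and 13 bases before the start, all on the other strand. In Cox6a1 the NRF1 letters lie on both strands, 162 and 161 bases before it, and the ETS letters 16 bases before it. The ETS letters stand 66 bases before the start of Uqcr11 and 10 bases before that of Uqcrh, so the pair that differed in the array values both held them.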

How the data were processed

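RNA of sorted monocytes was amplified, labelled and hybridised to 8 Affymetrix mouse expression arrays. The authors deposited log2 expression values for 45101 probe sets, made with RMA and limma per the submitters' processing notes (versions not given in the sources used here), and they were used as they stood; array medians ran from 6.12 to 6.19. RMA scales all arrays to 1 distribution, so changes shared by all genes are removed. Probe sets with 1 symbol in the platform annotation (34945) were kept; 932 had several, 9160 none listed and 64 were controls. Each gene was read from the probe set that was brightest on average, which gave 18193 genes.

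All 8 arrays entered 1 limma fit (version 3.58.1, R 4.3.3, default eBayes) of 4 group means, with 6 contrasts and Benjamini-Hochberg adjustment over all genes. Averages over bead state weigh both states equally. The code was tested on simulated data. Named genes were those with the smallest p or the most extreme differences per contrast and complex, all of complex II, isoform pairs, and up to 3 called genes per list. The members and lists were chosen with earlier results of these data known. Alternatives were other probe set summaries, filters, scalings, variance models, replicate blocks and each array left out. P-values set a difference against the spread between arrays of the same group, pooled over the 4 groups and moderated by eBayes.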

Additional observations from a re-analysis of the deposited data

Results flagged for a closer look

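The mean level of 3 complexes moved in opposite directions with beads in the subsets, on every array. In complex II the gene-centred mean was 0.14 and 0.18 without beads and 0.22 and 0.24 with beads in Gr1hi, and -0.10 and -0.17 without beads against -0.28 and -0.23 with beads in Gr1lo. The bead effect in Gr1lo minus that in Gr1hi was -0.19. In complex III the arrays read 0.10 and 0.14 without beads and 0.26 and 0.19 with beads in Gr1hi, and -0.06 and -0.12 against -0.25 and -0.26 in Gr1lo, a difference of -0.27. In complex V they read 0.25 and 0.25 without beads and 0.36 and 0.29 with beads in Gr1hi, and -0.15 and -0.26 against -0.34 and -0.41 in Gr1lo, a difference of -0.24. The difference was not tested for the complex means; gene by gene it called no subunit.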

How the results depend on the processing

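No named result reversed: of 1315 values for 79 results, 1285 were rated the same, 19 stronger and 11 weaker. Those that moved include medians, which carry no call. Numbers of called subunits were rated the same within a ratio of 1.5. Counts of subunits called between subsets ranged, with single arrays left out, from 43 to 56 without beads (56 with all arrays), 60 to 67 with beads (67) and 63 to 67 averaged (68), and under other settings from 46 to 60, 62 to 68 and 63 to 70. Their medians were -0.36, -0.57 and -0.48 with the mean of all probe sets, -0.35, -0.55 and -0.46 with arrays centred on the median and -0.41, -0.55 and -0.47 with cyclic loess; the median without beads ran from -0.48 to -0.40 with an array left out. Centring turned all genes from 3800 lower and 2684 higher to 2635 lower and 3548 higher, and the subunits from 67 and 1 to 61 and 3; it moved the median of all genes by at most 0.095. Ndufb8 lost its call in both bead states, at -0.24 and -0.17, and Uqcrq without beads, at -0.29, when dim probe sets were averaged in. Sdhd without beads lost it without Gr1lo replicate 2, at -0.35, and without Gr1hi replicate 2, at -0.32.

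For beads in Gr1hi, trend and robust estimation called 1 subunit (Uqcr10, limma adjusted p = 0.0436), and cyclic loess gave a median of 0.07. In Gr1lo trend and robust estimation called 5 (Atp5pb, Cox6b2, Cox7a2l, Ndufb6 and Ndufc1), and leaving out 1 array gave 0 to 1, Cox6b2 without replicate 1 with beads at -1.19. Among all 18193 genes, trend and robust estimation called 57 lower and 64 higher in Gr1hi, beside 18 and 27 in the main fit. In Gr1lo it called 95 of all genes lower and 32 higher, beside 26 and 15 in the main fit. The Gr1lo median was -0.05 with cyclic loess and -0.16 to -0.10 with an array left out. The median difference of bead effects was -0.20 with centring, -0.13 with loess and -0.20 to -0.13 with an array left out.

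Same-numbered arrays deviated together within a subset (r = 0.36 and 0.273) but not across subsets (-0.02 to 0.085), so the numbers do not pair all samples. With the replicate number as a block the counts were 0, 0 and 0 for beads and 56, 68 and 70 between subsets; a block within each subset, added after seeing the data, gave 46, 64 and 63 between subsets and 1 for beads in Gr1lo (Cox6b2). For beads in Gr1lo the block within each subset called 72 of all genes lower and 34 higher. Between subsets without beads, fitting the compared groups alone called 49 subunits lower and 1 higher (all genes: 1913 and 1527). With beads it called 66 lower and 0 higher (all genes: 2540 and 2048). Fitting the compared groups alone was not run for the average and the difference, which need all groups. Signal near background limits the 8 subunits under it.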
